A study of Mus musculus with 2 samples.

Results

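The 5 genes of the mouse Fc gamma receptor system, Fcgr1, Fcgr3, Fcgr4, Fcgr2b and Fcer1g, were followed across the leukocytes of B16-F10 melanomas, a transplanted mouse skin tumour, in mice with and without induced loss of Trex1, a DNA-degrading exonuclease. They were taken by symbol from the gene list of the deposited matrices, where all 5 were found among 32432 genes. Both groups were male mice of 8 to 12 weeks that carried R26CreERT2, a tamoxifen-inducible Cre expressed in all cell types, so the deletion was not aimed at one cell type. Trex1 iKO mice were Trex1 fl/fl-R26CreERT2-ki/wt, and Trex1 control mice were Trex1 wt/fl-R26CreERT2-ki/wt, that is, heterozygous for the floxed allele rather than wild type. All mice received 1000 B16-F10 cells in Matrigel in the skin of both legs and, from day 5, 1 mg of tamoxifen on each of 3 days, with harvest on day 14. CD45+ cells were sorted after blocking with an antibody to CD16/32, which binds the proteins of Fcgr3 and Fcgr2b, and their RNA was counted by 3' single-cell sequencing of 4 hashtagged samples per genotype. The 4 samples of a genotype formed 1 pool, and a difference of genotype therefore cannot be told apart from one of pool. The labels do not say that each sample was a separate mouse, and p-values measure the spread between these samples only.

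Fc gamma receptors bind the constant part of IgG and couple antibody-coated targets to the cells that hold them. FcγRI (Fcgr1, CD64, the high-affinity receptor), FcγRIII (Fcgr3, CD16) and FcγRIV (Fcgr4) are activating: they have no signalling motif of their own and pair with the common gamma chain (Fcer1g), whose ITAM recruits the kinase Syk. FcγRIIb (Fcgr2b, CD32B) is the inhibitory receptor of the family, and its ITIM recruits the phosphatase SHIP1 (Inpp5d). Macrophages and monocytes can hold all of them, neutrophils mainly Fcgr3 and Fcgr4, NK cells Fcgr3, and B cells Fcgr2b. Interferon gamma is a textbook inducer of Fcgr1, and Fcgr2b is known as a receptor that is set against the activating ones on the same cell.

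The upstream sequences of 3 members are shown: those of Fcgr1 and Fcgr4 held a match to one of the patterns searched, and that of the inhibitory receptor Fcgr2b, without a match, is set beside them. Each is the 250 bases before the annotated start, 5′ to 3′ on the gene's own strand, from the RefSeq annotation of GRCm38.p6. Capitals mark the letters that matched TTCNNNGAA, a pattern of interferon gamma-activated elements, or GAAA, any 2 bases and GAAA again (GAAA-NN-GAAA), a pattern of interferon response elements, each searched on both strands.
Fcgr1, chr3:96293970-96294219, minus strand: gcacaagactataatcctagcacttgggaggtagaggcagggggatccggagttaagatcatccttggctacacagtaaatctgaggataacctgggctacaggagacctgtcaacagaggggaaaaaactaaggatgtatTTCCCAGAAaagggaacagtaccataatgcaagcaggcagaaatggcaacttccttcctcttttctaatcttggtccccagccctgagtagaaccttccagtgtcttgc
Fcgr4, chr1:171018676-171018925, plus strand: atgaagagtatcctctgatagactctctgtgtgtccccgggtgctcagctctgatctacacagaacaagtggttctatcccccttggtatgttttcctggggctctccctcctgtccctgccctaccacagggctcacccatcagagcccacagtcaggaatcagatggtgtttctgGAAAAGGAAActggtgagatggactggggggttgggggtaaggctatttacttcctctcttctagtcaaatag
Fcgr2b, chr1:170976072-170976321, minus strand: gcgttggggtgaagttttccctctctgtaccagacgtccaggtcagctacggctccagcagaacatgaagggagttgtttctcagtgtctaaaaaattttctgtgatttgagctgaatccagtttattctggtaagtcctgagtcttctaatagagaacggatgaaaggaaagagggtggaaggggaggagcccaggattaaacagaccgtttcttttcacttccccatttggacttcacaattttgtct
Fcgr1 held 1 match of TTCNNNGAA, which began 109 bases before the start, and Fcgr4 held 1 match of GAAA-NN-GAAA, which began 73 bases before it. Neither pattern was found in this window of Fcgr2b, Fcgr3 or Fcer1g. Of 32851 windows of this length in the same table (27025 genes), 7.02% held TTCNNNGAA and 2.98% held GAAA-NN-GAAA, so a match is a description of the letters and not a site. The genes for Fcgr2b, Fcgr3, Fcgr4 and Fcer1g lie on chromosome 1 and Fcgr1 on chromosome 3.

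The 8 matrices held 23731 cell barcodes, of which 22052 were kept, and 17111065 to 96457227 UMIs (unique molecular identifiers, the count of captured RNA molecules) each. Cells of the iKO samples were deeper (sample medians of 12535.5 to 14221 UMIs) than those of the controls (5794 to 11490 UMIs), which is why every cell was thinned to 1500 UMIs before shares of cells were taken. Between replicates of a genotype the chi-square per degree of freedom of the summed counts was 7.65 to 213, where sampling noise alone gives about 1, and no barcode was shared within a pool, while 45 occurred in both pools. Trex1 had 2 UMIs over all kept cells, both in control sample 2, so its RNA checks no label. Over all kept cells the members had 109289 UMIs (Fcgr1, ENSMUSG00000015947), 74058 (Fcgr3, ENSMUSG00000059498), 37116 (Fcgr4, ENSMUSG00000059089), 74593 (Fcgr2b, ENSMUSG00000026656) and 697894 (Fcer1g, ENSMUSG00000058715).

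Classes of cells were rebuilt from clusters and from 6 markers per type in each cell, and are called "-like" for that reason. The gates held 5973 iKO and 2975 control monocyte/macrophage-like cells, 410 and 1325 neutrophil-like, 344 and 396 cDC2-like (a class of dendritic cell, DC), 298 and 268 mature DC-like, 239 and 676 B-like, 116 and 85 NK-like, 114 and 113 cDC1-like, 91 and 58 plasmacytoid DC-like (pDC-like), and 5112 and 2182 T-like cells. T-like cells, low in the receptor genes, served as the background. Before thinning, Fcer1g was found in 58.5% of them in iKO and 56.3% in control samples (means over samples). Whether T-like cells expressed any of these genes themselves was not tested. Levels are CPM, the UMIs of a gene per 1000000 UMIs of its class in a sample, which for 3' counting do not depend on transcript length. No exon of another annotated gene overlapped the last 500 bases of any member. Of the 31-base words in those ends, Fcgr3 shared 5 of 960 with Fcgr2b and Fcgr2b shared 76 of 1489 with Fcgr3, and no other pair shared any, so reads of Fcgr3 and Fcgr2b could be confused over a small part of their ends only.

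Across classes, each receptor had its own range of cells. Fcgr1, the high-affinity receptor, was highest in monocyte/macrophage-like cells, at 816 ± 265 CPM in iKO and 399.6 ± 38.1 CPM in control samples (SD, n = 4 each), followed by cDC2-like cells (273 ± 109 and 105 ± 16.2 CPM) and neutrophil-like cells (103 ± 32.9 and 52.2 ± 12.6 CPM). Fcgr2b, the inhibitory receptor, followed the same order at its top. Both steps in each order were seen in 8 of 8 samples and passed an exact paired permutation test over the samples (p = 0.00781, the smallest that 8 samples can give, and adjusted p = 0.0312 over 40 pairs of neighbouring classes). Fcgr3 was as high in neutrophil-like as in monocyte/macrophage-like cells within the spread: the former exceeded the latter by 0.22 on the log2 scale, in 7 of 8 samples (exact permutation p = 0.0469, adjusted p = 0.134).

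Fcgr4, which binds IgG2 subclasses, was led by monocyte/macrophage-like cells, whose lead of 0.49 (log2) over neutrophil-like cells was seen in 7 of 8 samples and missed the threshold (exact permutation, adjusted p = 0.0851). Below them, neutrophil-like cells exceeded cDC2-like cells by 1.56 and cDC2-like cells exceeded mature DC-like cells by 1.84 (log2, 8 of 8 samples each, exact permutation, adjusted p = 0.0312). Fcer1g, the shared signalling chain, was the broadest member. It was higher in monocyte/macrophage-like than in neutrophil-like cells, by 0.50 (log2, 8 of 8 samples, exact permutation, adjusted p = 0.0312). The step from neutrophil-like to cDC2-like cells (0.27, log2, 7 of 8 samples) did not pass (exact permutation, adjusted p = 0.120). NK-like and pDC-like cells came next, with 4 and 3 samples to compare, too few for a step to pass. In all, 10 of the 40 neighbour steps passed. With any 1 sample left out the smallest p of the test rises, and no step passed after adjustment.

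**Figure D1:**
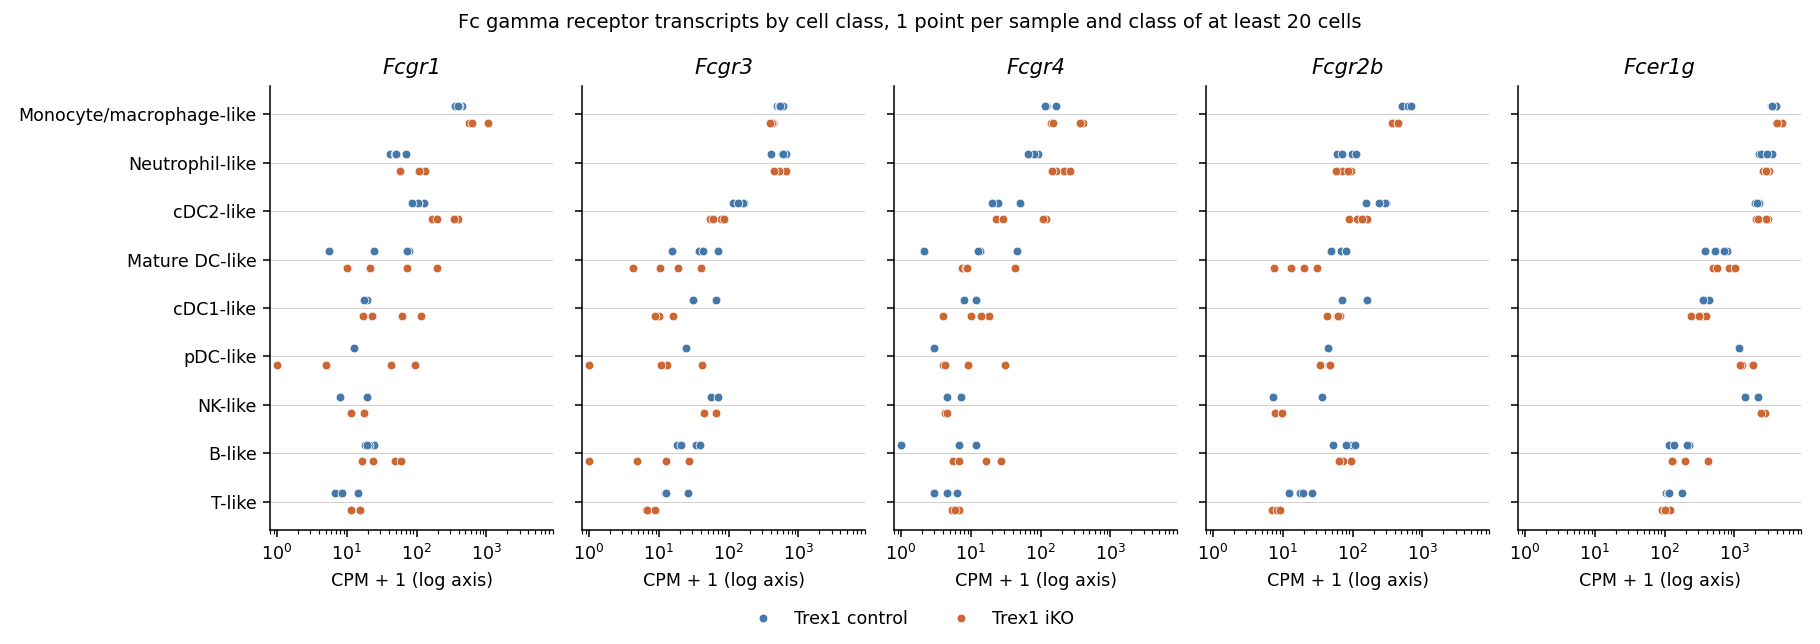
Level of each Fc receptor gene (CPM + 1 on a log axis, 1 panel per gene) in each cell class. Points are hashtagged samples with at least 20 cells of the class, control in blue and iKO in orange, and Fcgr1, Fcgr4 and Fcgr2b are highest in monocyte/macrophage-like cells while T-like cells lie near the bottom.

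In monocyte/macrophage-like cells, Fcgr1 rose and Fcgr3 and Fcgr2b fell in Trex1 iKO tumours, while Fcgr4 and Fcer1g did not pass the test. Counts were summed per sample and class and tested with edgeR's quasi-likelihood test, with Benjamini-Hochberg adjustment over all genes of a class and a threshold of 0.05. The 3 members called, of 5, stand beside 11.3% of the 11770 genes tested in this class. For 4 of the 5 members, all but Fcgr4, every CPM of one genotype lay beyond every CPM of the other, which was so for 20.4% of all genes tested.

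Fcgr1 was at 1047, 1043, 561 and 615 CPM in iKO samples 1 to 4 and at 448, 356, 404 and 390.3 CPM in control samples 1 to 4. Every iKO sample lay above every control sample, and iKO samples 1 and 2 stood well above iKO samples 3 and 4. The fitted log2 fold change was 1.01 ± 0.24 (SE, edgeR adjusted p = 0.0277). The call was lost on leaving out iKO sample 1 (log2 fold change 0.85, edgeR adjusted p = 0.0706), iKO sample 2 (0.85, adjusted p = 0.0770), control sample 2 (0.97, adjusted p = 0.0846), control sample 3 (1.01, adjusted p = 0.0629) or control sample 4 (1.01, adjusted p = 0.0735), though the size of the difference stayed between 0.85 and 1.18 over all 8 such fits.

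Fcgr4 was at 405, 364, 142 and 150.0 CPM in iKO samples 1 to 4 and at 166, 123, 118 and 114 CPM in control samples 1 to 4. Here iKO samples 1 and 2 were more than double any other sample, and iKO samples 3 and 4 fell inside the control range. The fitted difference, 1.02 ± 0.37, was as large as that of Fcgr1 but did not pass (log2 ± SE, edgeR adjusted p = 0.1004). It passed without iKO sample 3 (1.25, edgeR adjusted p = 0.0386) or without iKO sample 4 (1.23, adjusted p = 0.0489), and with DESeq2 on all samples (1.02, adjusted p = 0.0293).

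Fcgr3 moved the other way. It was at 450.2, 425, 414 and 387 CPM in iKO samples 1 to 4 and at 488, 596, 519 and 538 CPM in control samples 1 to 4. All iKO samples were lower than all control samples, with no division between iKO samples 1 and 2 and the others. The fitted log2 fold change was -0.39 ± 0.10 (SE, edgeR adjusted p = 0.0401). This call was thin: leaving out any 1 sample but control sample 1 ended it, with edgeR adjusted p-values of 0.0518, 0.0801, 0.0736 and 0.0760 without iKO samples 1 to 4 and of 0.112, 0.0571 and 0.0944 without control samples 2 to 4.

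Fcgr2b was at 390.1, 368, 448 and 444 CPM in iKO samples 1 to 4 and at 503, 670.4, 617 and 676 CPM in control samples 1 to 4. The groups did not overlap, and control sample 1 was the lowest of the controls. Its log2 fold change was -0.63 ± 0.11 (SE, edgeR adjusted p = 0.0112), and the call was kept in each of the 8 fits that left out a sample (adjusted p = 0.00545 to 0.0398). Fcer1g was at 4826, 4868, 3981 and 4066 CPM in iKO samples and at 3869, 3284, 3483 and 3467 CPM in control samples. Its groups did not overlap either, and the difference of 0.30 ± 0.11 (log2 ± SE) did not pass (edgeR adjusted p = 0.112). It passed with cells thinned to equal depth (0.275, edgeR adjusted p = 0.0471) and with scaling by library totals (0.331, adjusted p = 0.0436).

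**Figure D2:**
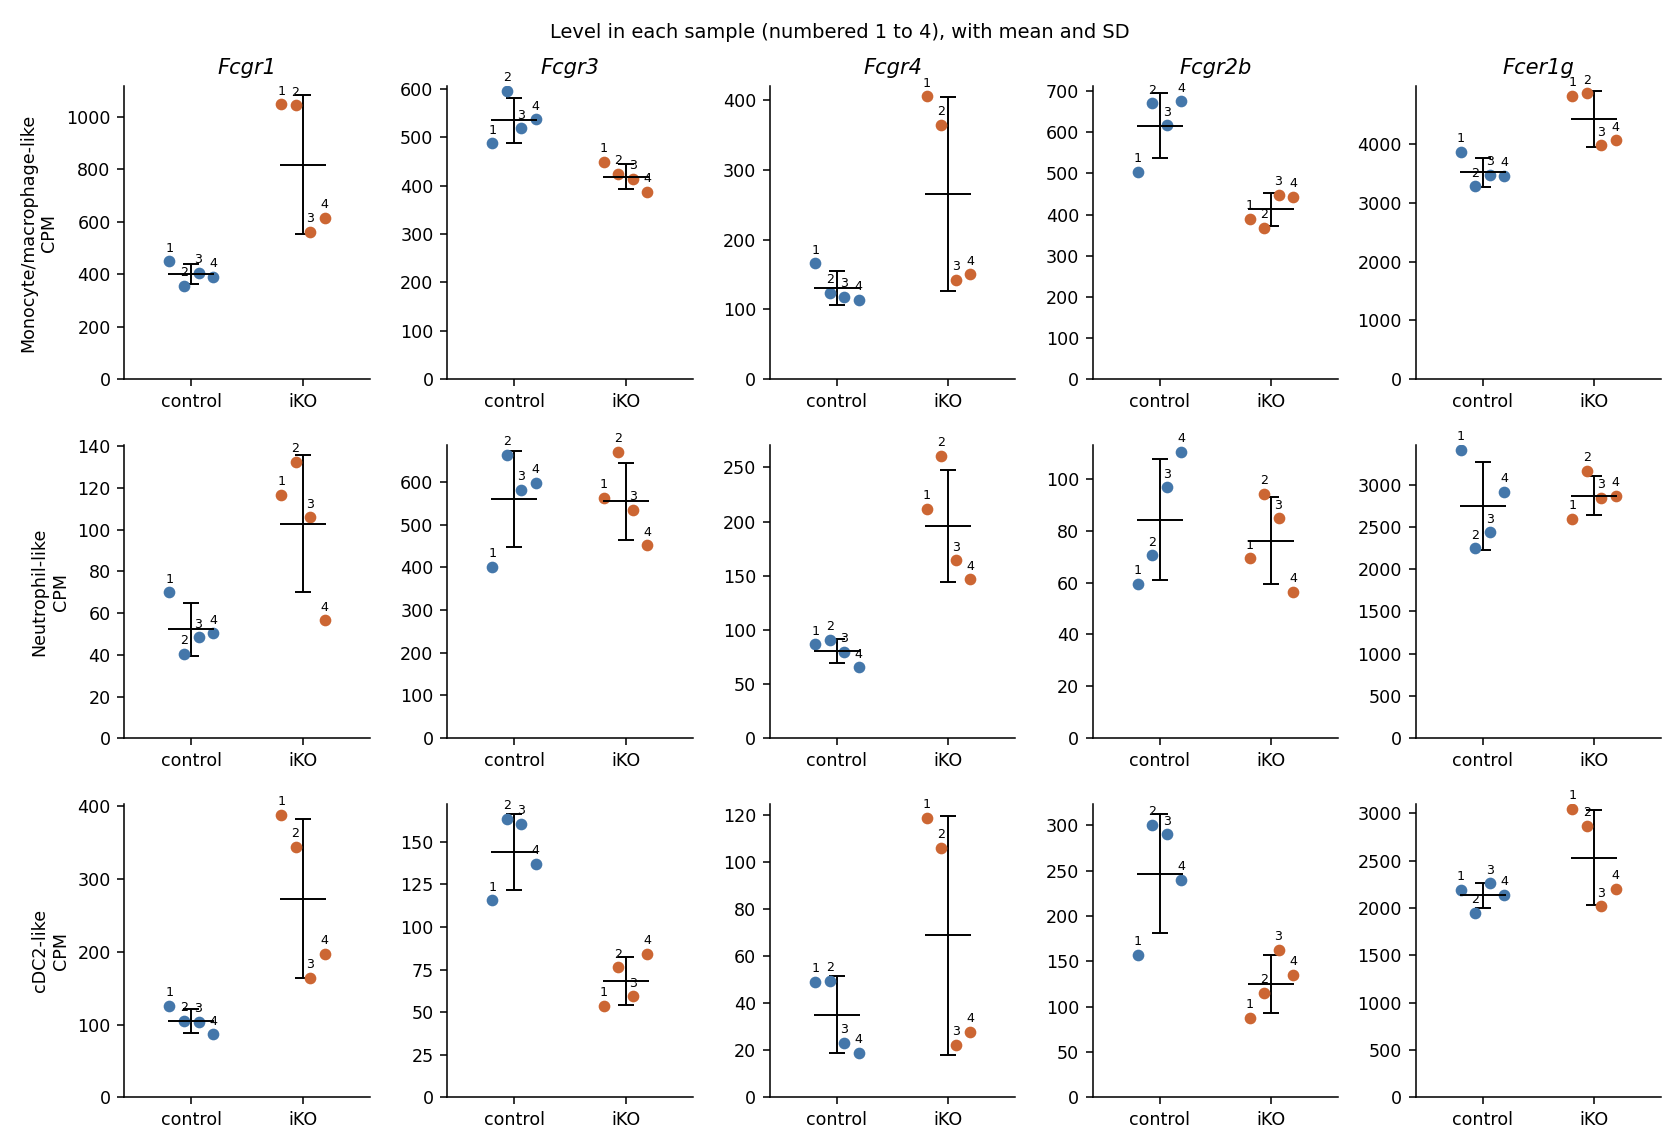
CPM of the 5 members in monocyte/macrophage-like, neutrophil-like and cDC2-like cells of each hashtagged sample (linear axes from 0, 1 panel per gene and class, points numbered by sample, bars at the group mean with the SD). In monocyte/macrophage-like cells iKO samples 1 and 2 stand apart for Fcgr1 and Fcgr4, and for Fcgr2b all iKO samples lie below all control samples.

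Samples 1 and 2 of the iKO group differed from samples 3 and 4 in other measures as well. T-like cells made up 39.8%, 49.0%, 25.5% and 19.2% of the kept cells of iKO samples 1 to 4 and 36.8%, 29.3%, 24.6% and 12.1% of those of control samples 1 to 4. Of monocyte/macrophage-like cells, 38.3%, 36.3%, 16.1% and 17.3% in iKO samples and 20.7%, 12.5%, 9.68% and 8.70% in control samples were cells with at least 2 UMIs of Cxcl9 or Cxcl10 (chemokines induced by interferon gamma) in the subset described below. The leading genes of cluster 11 included Ccl12, Cd72, Cxcl9, the member Fcgr4 itself and the C1q genes. Cells of this cluster made up 20.1%, 18.9%, 2.56% and 3.68% of the class in iKO samples and 3.97%, 1.13%, 0.968% and 0.840% in control samples. The part of these differences in the levels of Fcgr1 and Fcgr4 was not tested over all cells, and the values within subsets and clusters follow.

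Markers of other cells also moved within the class. The 6 neutrophil markers summed to 97.0 to 204 CPM in iKO and 221 to 315 CPM in control monocyte/macrophage-like cells, and the 6 cDC2 markers to 36.3 to 93.3 and 105 to 149.7 CPM. Those of mature DC were lower in iKO as well, at 5.41 to 6.71 against 7.93 to 20.6 CPM. Markers of melanoma or stroma were higher, at 29.4 to 44.6 against 16.8 to 25.3 CPM, as were those of pDC, at 3.75 to 5.14 against 2.22 to 3.59 CPM. In none of these 5 sets did the genotypes overlap. The sums overlapped for cDC1 (312 to 432 and 200.2 to 321 CPM), T cell (51.1 to 69.1 and 42.1 to 60.8 CPM), B cell (6.86 to 16.9 and 10.7 to 52.7 CPM) and NK cell markers (3.97 to 5.25 and 2.26 to 4.17 CPM). All of these are small beside the class's own 6 markers, at 10770 to 13080 and 10290 to 15990 CPM, and their part in the receptor differences was not tested.

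The shares of cells with a receptor transcript differed in the same directions at equal depth. Cells were thinned to 1500 UMIs, which left out 67 iKO and 60 control cells of the clusters of this class. The marker gate was then applied again to the thinned counts. It held 1744, 2061, 630 and 1258 cells in iKO and 574, 397, 599 and 1233 in control samples 1 to 4. Of these monocyte/macrophage-like cells, 60.2% ± 10.8 in iKO and 41.3% ± 1.32 in control samples had an Fcgr1 UMI (SD over 4 samples each). For Fcgr2b the shares were 39.4% ± 2.69 and 55.3% ± 5.45, for Fcgr3 41.5% ± 2.95 and 51.0% ± 2.59, and for Fcgr4 26.04% ± 10.6 and 16.6% ± 2.46. Nearly every cell had a Fcer1g UMI, 99.5% ± 0.20 and 97.7% ± 0.91. T-like cells thinned in the same way gave the background: 1.92% and 1.56% for Fcgr1, 0.74% and 3.20% for Fcgr2b, 1.11% and 2.80% for Fcgr3, 1.10% and 0.92% for Fcgr4, and 14.0% and 18.8% for Fcer1g, in iKO and control (median depths before thinning of 13303.5 and 6896 UMIs). At their own depth, a median of 14877 UMIs in iKO and 14168 UMIs in control cells, the shares were 94.2% and 86.9% for Fcgr1, 86.6% and 94.0% for Fcgr2b, 89.3% and 94.3% for Fcgr3, and 69.99% and 56.0% for Fcgr4, so most cells of the class held RNA of both kinds of receptor.

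Seen cell by cell at 1500 UMIs, activating receptors without the inhibitory one were found more often in iKO cells. Cells with a UMI of Fcgr1, Fcgr3 or Fcgr4 and none of Fcgr2b made up 46.5% ± 7.14 of iKO and 31.5% ± 3.45 of control monocyte/macrophage-like cells (SD, n = 4 samples each). Cells with both kinds made up 33.3% ± 1.74 and 42.9% ± 3.58, and cells with Fcgr2b alone 6.08% ± 2.80 and 12.4% ± 2.24. Cells with none of the 4 receptors were about as frequent in the 2 groups, at 14.1% ± 5.17 and 13.3% ± 2.01. These shares follow from the levels of the 4 genes and were not tested.

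The balance of activating to inhibitory receptor RNA was taken as the UMIs of Fcgr1, Fcgr3 and Fcgr4 together over those of Fcgr2b, a ratio within a sample that library scaling cannot move. In monocyte/macrophage-like cells it was 4.88, 4.98, 2.49 and 2.60 for iKO samples 1 to 4. For control samples 1 to 4 it was 2.19, 1.605, 1.69 and 1.54. Every iKO ratio was above every control ratio, with iKO samples 1 and 2 again highest. The mean log2 ratio was higher in iKO by 1.03, the exact two-sided permutation p was 0.0286, the smallest that 4 against 4 samples can give, and the adjusted p over 9 classes and subsets was 0.0571. No class can pass 0.05 after this adjustment unless more of the classes reach the smallest p.

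The ratio was higher in iKO in all 9 classes and subsets examined, none of which passed after adjustment (each adjusted p = 0.0571, exact permutation). Without iKO sample 3, all but neutrophil-like, mature DC-like and Arg1 cells passed, that is 6 of the 9 (adjusted p = 0.0429 each, exact permutation). The difference in log2 was 1.11 in Vcan/Chil3 cells, 0.90 in C1q cells and 0.92 in the remaining monocyte/macrophage-like cells (unadjusted p = 0.0286 each), and 0.88 in Cxcl9/10 cells and 0.71 in Arg1 cells (unadjusted p = 0.0571 each). In cDC2-like cells the ratio was 6.42, 4.57, 1.51 and 2.29 in iKO and 1.85, 1.06, 0.991 and 1.01 in control samples, so that iKO sample 3 fell below control sample 1. The difference was widest in mature DC-like cells (2.15, log2) and narrowest in neutrophil-like cells (0.42, unadjusted exact permutation p = 0.0571 each). Mature DC-like ratios rested on few UMIs, with 6, 37, 8 and 37 of Fcgr2b in iKO samples 1 to 4. Control sample 2 had 18 UMIs of the activating receptors there. Neutrophil-like cells had the highest ratios, 12.8, 11.3, 9.50 and 11.6 in iKO and 9.35, 11.2, 7.34 and 6.46 in control samples. Of the UMIs of the 4 receptors in monocyte/macrophage-like cells, Fcgr1 gave 41.9% ± 5.56 in iKO and 23.9% ± 3.17 in control samples and Fcgr2b 22.5% ± 6.57 and 36.6% ± 3.59. These are shares of counted RNA, and how well each 3' end was captured was not tested.

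**Figure D3:**
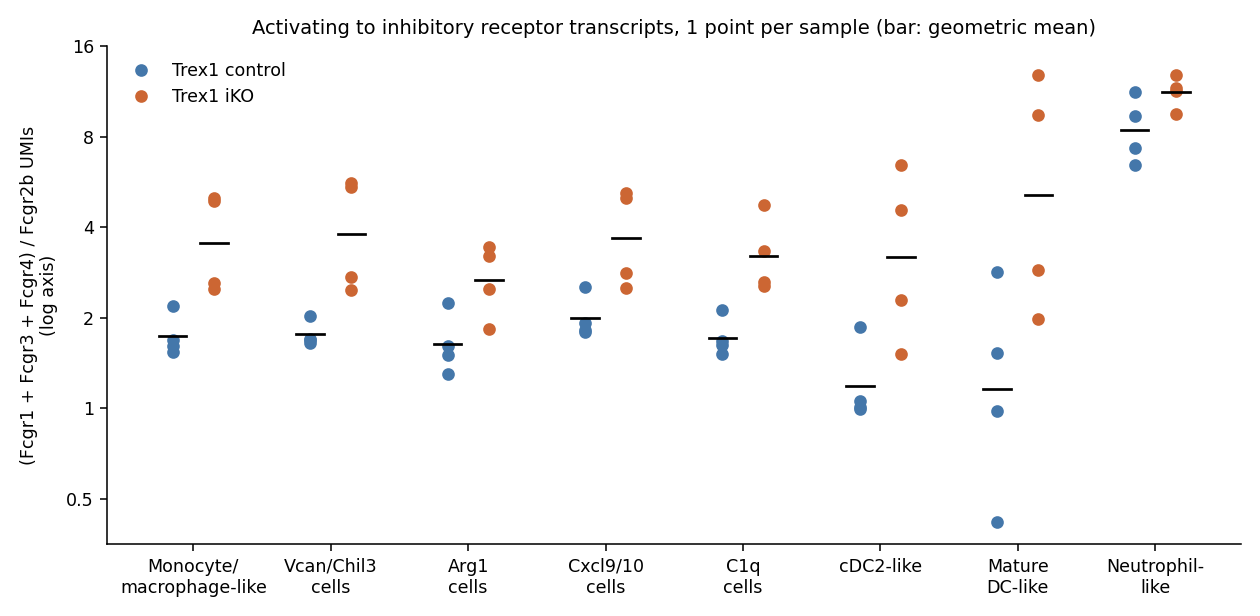
Ratio of Fcgr1, Fcgr3 and Fcgr4 UMIs together to Fcgr2b UMIs in each hashtagged sample (log2 axis), by class and subset, with control in blue, iKO in orange and a bar at the geometric mean. In monocyte/macrophage-like cells the 4 iKO samples lie between 2.49 and 4.98 and the 4 control samples between 1.54 and 2.19.

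Monocyte/macrophage-like cells were then divided by marker UMIs. Vcan/Chil3 cells, monocyte-like, had at least 2 UMIs of Vcan or Chil3 and fewer than 2 of the C1q genes. The rest were split into Arg1 cells and Cxcl9/10 cells, with at least 2 UMIs of that marker and not of the other, and C1q cells, with neither and at least 2 C1q UMIs. In Vcan/Chil3 cells Fcgr1 and Fcgr4 rose and Fcgr2b fell, 3 of 5 members beside 12.9% of genes. There Fcgr1 was at 1006, 1047, 639 and 661 CPM in iKO and 438, 415, 406 and 436 CPM in control samples (log2 fold change 0.95, edgeR adjusted p = 0.0101), and this call was kept with any 1 sample left out. Fcgr4 in these cells was at 253, 212, 129 and 119 CPM in iKO and 91.6, 94.96, 67.0 and 88.3 CPM in control samples, so that here the groups did not overlap (1.04 ± 0.26, log2 ± SE, edgeR adjusted p = 0.0288). The share of all genes whose groups did not overlap was not counted in this or the other subsets. The Fcgr4 call was lost without iKO sample 1 (edgeR adjusted p = 0.0692), iKO sample 2 (0.0808) or control samples 2, 3 or 4 (0.0596, 0.0804 and 0.0702). Fcgr2b fell by 0.69 on the log2 scale (edgeR adjusted p = 0.0159, or 0.0520 without control sample 4), and Fcgr3 missed the threshold (-0.34, adjusted p = 0.0577).

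In the macrophage subsets fewer members passed. In C1q cells 2 of 5 were called beside 3.45% of genes: Fcgr1 rose (log2 fold change 0.97, edgeR adjusted p = 0.0263) and Fcgr3 fell (-0.41, adjusted p = 0.0418). Both calls there ended when iKO sample 1 or 2, or control sample 2, 3 or 4, was left out (edgeR adjusted p = 0.0732 to 0.0952 for Fcgr1 and 0.0856 to 0.138 for Fcgr3), and that of Fcgr3 also without iKO sample 3 or 4 (adjusted p = 0.0678 and 0.107). In Cxcl9/10 cells 2 of 5 were called beside 3.16% of genes, Fcgr2b (-0.56, edgeR adjusted p = 0.0189) and Fcgr3 (-0.45, adjusted p = 0.0495). The Fcgr3 call there was lost on leaving out any 1 sample (edgeR adjusted p = 0.0638 to 0.151), and that of Fcgr2b without iKO samples 1 or 2 or control samples 2 or 4 (adjusted p = 0.0548 to 0.0698). Fcgr1 had the widest difference of the 5 members there. It was at 1124, 1086, 545 and 638 CPM in iKO samples 1 to 4 and at 467, 313, 518 and 379 CPM in control samples 1 to 4. The groups did not overlap, and the share of all genes of which this was so was not counted here. The edgeR test did not call Fcgr1 (0.99 ± 0.26, log2 ± SE, adjusted p = 0.0695), but it passed without iKO sample 3 (edgeR adjusted p = 0.0212) or 4 (0.0480), with library totals (0.0469), without a filter (0.0101), with thinned cells (0.00363) and with DESeq2 (adjusted p = 0.0138).

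Fcgr4 in Cxcl9/10 cells, the subset with its highest level, was at 560, 489, 209 and 215 CPM in iKO and 308, 203, 259.7 and 216 CPM in control samples. Its groups overlapped there and the difference did not pass (0.55, log2, edgeR adjusted p = 0.378). In Arg1 cells edgeR called no member beside 1.53% of genes, with 2 members at an unadjusted p under 0.05 and 1 member, Fcgr1, called by DESeq2. Fcgr1 had a difference of 1.06 there (edgeR adjusted p = 0.0720) and passed without iKO sample 3 (1.24, adjusted p = 0.0311), iKO sample 4 (1.22, 0.0390) or control sample 1 (1.28, 0.0376), whereas Fcgr2b differed by only -0.20 (adjusted p = 0.629).

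Clusters gave a finer division, since the members were kept out of the clustering. In the 7 monocyte/macrophage-like clusters with enough cells in both genotypes, Fcgr1 had a higher and Fcgr2b and Fcgr3 a lower fitted level in iKO in all 7. Fcgr1 was called in cluster 0 (led by Vcan and Chil3, 0.66, edgeR adjusted p = 0.0217, beside 3.71% of genes), cluster 6 (Arg1 and Thbs1, 1.08, adjusted p = 0.00888, beside 7.35%) and cluster 13 (Chil3 and Tppp3, 1.51 ± 0.10, adjusted p = 4.50e-08, beside 9.26%). It did not pass in clusters 3, 16, 18 and 20 (0.59 to 0.78, edgeR adjusted p = 0.0559 to 0.282), where 0.207%, 0.915%, 3.11% and 0.293% of genes were called. Fcgr2b was called in clusters 0 (-0.50, edgeR adjusted p = 0.04997, just under the threshold), 13 (-0.41, adjusted p = 0.0202) and 20 (led by Ccl8 and C1qa, -0.97, adjusted p = 0.0118), and Fcgr3 in cluster 13 alone (-0.37, adjusted p = 0.0379).

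With 1 sample left out, Fcgr1 kept its call in clusters 6 and 13 in every fit. In cluster 0 it was lost without iKO sample 1, iKO sample 2 or control sample 3 (edgeR adjusted p = 0.0702, 0.0710 and 0.0621). The Fcgr2b call of cluster 0 was kept only without iKO sample 3 or control sample 1 (edgeR adjusted p = 0.0320 and 0.0461, and 0.0504 to 0.150 otherwise). That of cluster 13 was kept in the fits that dropped iKO sample 3, iKO sample 4 or control sample 1 and lost in the other 4 (edgeR adjusted p = 0.0525 to 0.0870), and that of cluster 20 without iKO sample 4 (0.0902) or control sample 2 (0.0656). The Fcgr3 call of cluster 13 was kept only without iKO sample 2 or control sample 1 (edgeR adjusted p = 0.0228 and 0.0181, and 0.0660 to 0.157 otherwise). Cluster 13 rested on 3 control samples, without control sample 2, and cluster 20 on 3 iKO samples, without iKO sample 1.

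Fcgr4 was the member whose difference changed most with the division. The edgeR test called it in none of the 7 clusters, and its log2 fold change ran from 1.09 in cluster 6 (edgeR adjusted p = 0.0580) to -0.40 in cluster 13 (adjusted p = 0.266) and -0.04 in cluster 20 (adjusted p = 0.984). At an unadjusted p under 0.05 it passed in cluster 6 only. Cluster 11, with Fcgr4 among its leading genes, had the highest Fcgr4 level. There the mean was 621 CPM in the 3 iKO samples and 630.2 CPM in the 1 control sample with at least 20 cells of the cluster. That cluster made up 2.56% to 20.1% of the class in iKO and 0.840% to 3.97% in control samples, as above.

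With clusters 0, 3, 6 and 16, which had enough cells in all 8 samples, given equal weight in every sample, the mean log2 level of Fcgr1 was higher in iKO by 0.81 and that of Fcgr3 lower by 0.15 (exact permutation p = 0.0286 each, the smallest possible). By the same measure Fcgr2b differed by -0.31 (exact permutation p = 0.0571), Fcer1g by 0.22 (p = 0.0571) and Fcgr4 by 0.60 (p = 0.0857). Over the whole class, on the same log2(CPM + 1) scale, the differences were 0.97 (Fcgr1), -0.35 (Fcgr3), -0.57 (Fcgr2b), 0.33 (Fcer1g) and 0.88 (Fcgr4), so each was smaller in size over the 4 clusters. The 2 measures differ both in the weights and in the clusters they hold. The clusters were fitted after the class had been examined.

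**Figure D4:**
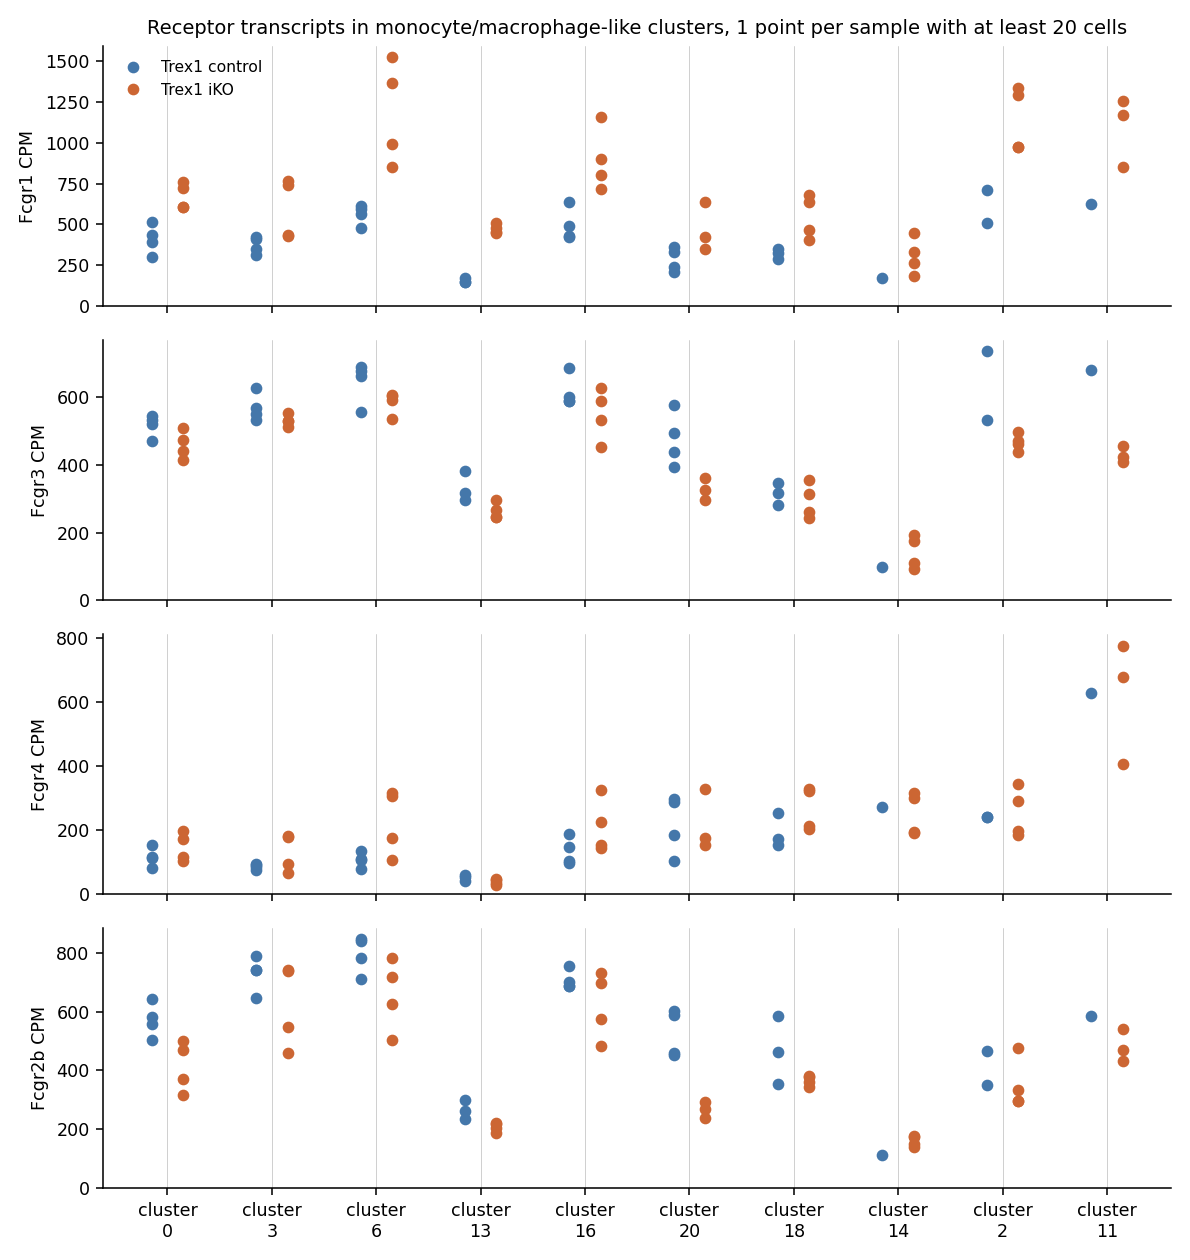
CPM of the 4 receptor genes in each monocyte/macrophage-like cluster (linear axes from 0), with a point per sample with at least 20 cells of the cluster, control in blue and iKO in orange. The iKO mean is above the control mean for Fcgr1 in every cluster shown and below it for Fcgr2b in all but cluster 14, and Fcgr4 is highest in cluster 11, with means of 621 and 630.2 CPM.

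**Figure D5:**
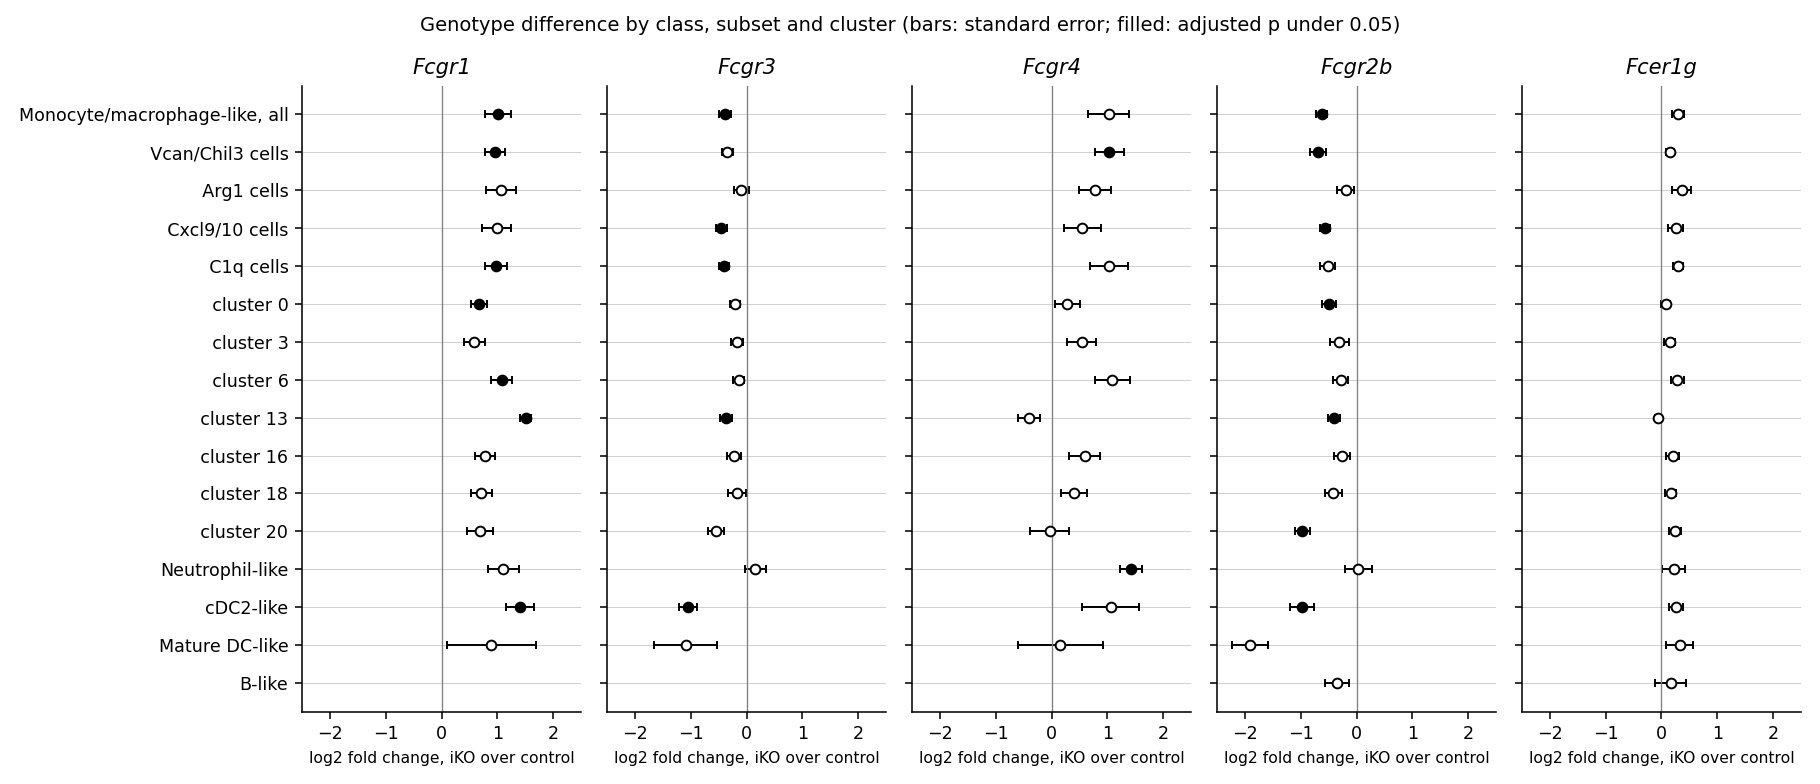
Log2 fold change, iKO over control, of each member in each class, subset and cluster with a test (points, with bars for the standard error of edgeR's fit, filled where the adjusted p was under 0.05). Fcgr1 lies to the right of 0 and Fcgr2b to the left in all 7 monocyte/macrophage-like clusters, whereas Fcgr4 ranges from -0.40 to 1.09 in them.

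Neutrophil-like cells showed another pattern: Fcgr4 rose, and no other member passed. Fcgr4 was at 212, 261, 164 and 147 CPM in iKO samples 1 to 4 and at 86.6, 90.7, 80.0 and 65.4 CPM in control samples 1 to 4. All 4 iKO samples, samples 3 and 4 included, lay above all control samples, which 8.53% of genes in this class also did in one direction or the other. The log2 fold change was 1.43 ± 0.20 (SE, edgeR adjusted p = 0.00188), 1 member of 5 beside 1.89% of 6438 genes, and it was kept with any 1 sample left out (adjusted p = 0.00187 to 0.0148). Of cells thinned to 1500 UMIs, 23.1% ± 2.86 in iKO and 10.6% ± 1.54 in control samples had a Fcgr4 UMI (SD, n = 4 each).

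Fcgr3, the main activating receptor of these cells, was at 562, 669.9, 535 and 451 CPM in iKO and 401, 662, 581 and 597 CPM in control samples. The groups overlapped widely (0.15 ± 0.19, log2 ± SE, edgeR adjusted p = 0.763). Fcgr1, much lower here than in macrophages, was at 117, 133, 106 and 56.5 CPM in iKO and 69.9, 40.3, 48.4 and 50.2 CPM in control samples. Here iKO sample 4 fell inside the control range, and the difference of 1.10 ± 0.27 (log2 ± SE) did not pass (edgeR adjusted p = 0.0729), but it did without iKO sample 4 (1.30, adjusted p = 0.0155) or control sample 1 (1.32, adjusted p = 0.0276). Fcgr2b (0.03 ± 0.24, edgeR adjusted p = 0.983) and Fcer1g (0.22 ± 0.21, adjusted p = 0.691) had overlapping groups, and the direction of Fcgr2b turned under several settings.

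Marker genes of monocyte/macrophage-like cells, Lyz2 and Cd14 among them, were detected in the neutrophil gate in both genotypes. Whether this RNA came from monocyte/macrophage-like cells or from the neutrophil-like cells themselves was not tested. All 6 of that class's markers were detected, none at 0 in any sample, and they summed to 4365 to 5276 CPM in iKO and 2857 to 7060 CPM in control samples. Csf1r, the receptor that defines macrophages, was at 88.3 to 128 CPM in iKO and 59.6 to 125 CPM in control samples, and Adgre1 (F4/80) at 17.7 to 26.9 and 10.1 to 27.0 CPM. These ranges overlap between the genotypes, and the part of this RNA in the Fcgr4 difference was not tested. Scaling by library totals alone, without TMM factors, moved the median of all genes in this class from 0.0025 to -0.15 (log2), and the Fcgr3 difference turned with it, to -0.02.

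In cDC2-like cells Fcgr1 rose and Fcgr3 and Fcgr2b fell, 3 of 5 members beside 2.1% of 8553 genes. Fcgr1 was at 388, 344, 164 and 197 CPM in iKO samples 1 to 4 and 126, 105, 104 and 86.4 CPM in control samples 1 to 4. As in macrophages, all iKO samples were higher, and samples 1 and 2 the highest (1.399 ± 0.25, log2 ± SE, edgeR adjusted p = 0.0156). The call was lost without iKO sample 2 (1.26, edgeR adjusted p = 0.0558) or control sample 2 (1.404, 0.0609), 3 (1.38, 0.0588) or 4 (1.32, 0.0542). After thinning, only iKO samples 2 and 4 kept at least 20 cells (29 and 43), too few samples for a fit. Of the thinned cells, 17.9% ± 0.96 in iKO (SD, n = 2) and 18.7% ± 8.47 in control samples (n = 4) had an Fcgr1 UMI. The Fcgr1 rise was thus not seen in these shares. They were 4.65% and 11.7% for Fcgr3 and 12.75% and 26.2% for Fcgr2b, in iKO and control. Fcgr3 was at 53.7, 76.4, 59.3 and 84.2 CPM in iKO and 116, 164, 160.5 and 137 CPM in control samples. Its groups did not overlap, which 9.67% of genes in the class also showed, and its fall of 1.05 ± 0.16 on the log2 scale (edgeR adjusted p = 0.00885) was kept with any 1 sample left out (adjusted p = 0.00580 to 0.0449).

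Fcgr2b in cDC2-like cells was at 87.3, 115, 162 and 135 CPM in iKO and 157, 300.3, 289.8 and 239.5 CPM in control samples. Control sample 1 lay inside the iKO range, and the fall of 0.98 ± 0.22 (log2 ± SE, edgeR adjusted p = 0.0436) was lost in 6 of 8 fits with a sample left out: without iKO samples 1, 2 or 4 (edgeR adjusted p = 0.114, 0.152 and 0.0522) or control samples 2, 3 or 4 (0.155, 0.134 and 0.0982). Fcgr4 was at 119, 106, 22.2 and 27.9 CPM in iKO and 49.0, 49.4, 23.2 and 18.9 CPM in control samples. Only iKO samples 1 and 2 were high, and the difference did not pass (1.06 ± 0.51, edgeR adjusted p = 0.313). Fcer1g differed by 0.26 ± 0.12 (edgeR adjusted p = 0.308).

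Markers of the cDC2 gate differed between the genotypes. The gate kept 74.0% of the cells of its cluster in iKO and 89.8% in control samples, and the 6 cDC2 markers summed to 721 to 1880 CPM in iKO and 1670 to 2294 CPM in control samples. Neutrophil markers were lower in iKO too, at 40.8 to 104 against 126 to 348 CPM. Monocyte/macrophage markers summed to 1747 to 2125 and 1850 to 2468 CPM, with overlap, and Csf1r, whose ranges did not overlap, was lower in iKO at 47.7 to 99.2 against 121 to 142 CPM. The part of these values in the receptor differences was not tested.

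Among mature DC-like cells no member passed edgeR's test, beside 0.0751% of 6659 genes, with 1 member at an unadjusted p under 0.05 and 1 called by DESeq2, in both cases Fcgr2b. Fcgr2b was at 6.46, 29.4, 12.02 and 19.1 CPM in iKO and 67.1, 48.4, 78.9 and 78.2 CPM in control samples. These levels rested on 6, 37, 8 and 37 Fcgr2b UMIs in iKO and 36, 43, 83 and 100 in control samples 1 to 4. In iKO T-like cells Fcgr2b was at 6.03 to 8.26 CPM, a range that held iKO sample 1 of the mature DC-like cells but not the others. Over both genotypes it was higher in mature DC-like than in T-like cells in 8 of 8 samples (1.44, log2, exact permutation, adjusted p = 0.0312). The iKO and control groups of mature DC-like cells did not overlap, as was so for 6.41% of the genes tested. On these few counts the fitted difference, -1.90 ± 0.32 (log2 ± SE, edgeR adjusted p = 0.0606), was the widest of any member in any class tested. It passed without iKO sample 2 (-2.27, edgeR adjusted p = 0.0167). Fcgr1 and Fcgr4 were low and scattered there, with iKO sample 2 highest for Fcgr1 (197 CPM, against 9.01 to 73.2 CPM in the other iKO samples).

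In B-like cells Fcgr2b, their own Fc gamma receptor, did not differ beyond the spread. It was at 70.5, 94.7, 72.7 and 63.2 CPM in iKO and 51.6, 98.3, 107 and 80.0 CPM in control samples, against 6.03 to 8.26 CPM in iKO and 11.2 to 25.5 CPM in control T-like cells. The iKO values lay inside the control range, while 8.05% of genes in the class had groups that did not overlap (-0.34 ± 0.22, log2 ± SE, edgeR adjusted p = 0.551). Of B-like cells thinned to 1500 UMIs, 15.2% ± 4.30 in iKO and 13.4% ± 1.58 in control samples had an Fcgr2b UMI. Of the 5 members 2, Fcgr2b and Fcer1g, had enough counts for a test in this class. Neither was called by edgeR, beside 3.12% of 3206 genes, and none had an unadjusted p under 0.05. DESeq2, which tested 4 members there, called none and had 1 at an unadjusted p under 0.05. Fcer1g was at 126 to 416 CPM in iKO and 115 to 224 CPM in control B-like cells, compared with 91.2 to 119 and 105 to 179 CPM in T-like cells, and it was higher in B-like than in T-like cells in 8 of 8 samples (0.64, log2, exact permutation, adjusted p = 0.0312).

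NK-like cells were few, and only iKO samples 1 and 2 and control samples 1 and 3 had at least 20 of them, short of the 3 samples per genotype that a test was set to need. Fcer1g, which in NK cells also serves the activating receptors Ncr1 and Fcgr3, was at 2735 and 2379 CPM in those iKO samples and 2155 and 1437 CPM in those control samples, well above T-like cells. Fcgr3 was at 43.3 and 65.8 CPM and at 55.1 and 70.3 CPM in the same samples, and a difference was not detectable at this depth. Of thinned NK-like cells, 9.80% ± 5.55 in iKO and 7.26% ± 3.54 in control samples had an Fcgr3 UMI (SD, n = 2 each), above the share in T-like cells. Fcgr1 was at 7.03 to 18.4 CPM and Fcgr4 at 3.33 to 6.12 CPM in these 4 samples, at or near the T-like level. Plasmacytoid DC-like cells held Fcer1g at 1807, 1819, 1268 and 1189 CPM in iKO samples and 1179 CPM in the 1 control sample with enough cells. Among cDC1-like cells Fcgr2b was at 58.2, 42.5, 65.8 and 61.3 CPM in iKO samples and 160 and 68.9 CPM in control samples 3 and 4, the controls with enough cells. With the minimum lowered to 10 cells, all 8 samples entered for cDC1-like cells, and edgeR called none of the 4 members tested, beside 1.79% of 6467 genes, with 3 at an unadjusted p under 0.05. These were Fcgr1 (1.80 ± 0.53, log2 ± SE, edgeR adjusted p = 0.113), Fcgr3 (-1.71 ± 0.48, adjusted p = 0.0963) and Fcgr2b (-0.78 ± 0.27, adjusted p = 0.160).

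The T-like background differed as well. The edgeR test called 2 of 5 members there, beside 4.85% of 10716 genes: Fcgr2b (-1.32 ± 0.23, log2 ± SE, adjusted p = 0.0154) and Fcgr3 (-1.18 ± 0.27, adjusted p = 0.0397). Both calls ended without iKO sample 1, iKO sample 2, control sample 2 or control sample 3 (edgeR adjusted p = 0.0505 to 0.0572 for Fcgr2b and 0.0690 to 0.119 for Fcgr3), and that of Fcgr3 also without iKO sample 3 (0.0616). Fcgr2b was at 6.36, 6.03, 7.25 and 8.26 CPM in iKO and 11.2, 16.6, 18.8 and 25.5 CPM in control T-like cells, with no overlap (as for 14.3% of genes in the class) and both groups far below monocyte/macrophage-like cells. Lyz2, a myeloid transcript, was lower in iKO T-like cells too, at 101 to 150.1 against 179.7 to 419.9 CPM, as was Cd14, at 10.1 to 14.2 against 27.1 to 78.7 CPM. Fcgr1 went against this, at 10.5 to 14.5 CPM in iKO and 5.81 to 13.5 CPM in control T-like cells (0.53 ± 0.23, edgeR adjusted p = 0.195).

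Whether a genotype difference was larger in one class than in another was tested directly, for each member, between monocyte/macrophage-like cells and each of 5 other classes. None of the 25 differences passed after adjustment (exact permutation, lowest adjusted p = 0.204). At the smallest p that 4 against 4 samples allow, 0.0286 unadjusted, 3 stood out: the Fcgr3 difference was lower in monocyte/macrophage-like than in neutrophil-like cells by 0.35, and it was less negative than in cDC2-like cells by 0.72 and, for Fcgr2b, than in T-like cells by 0.63 (log2). For Fcgr4 the effects in the 2 main classes, 0.88 in monocyte/macrophage-like and 1.24 in neutrophil-like cells on the log2(CPM + 1) scale, were not told apart (difference -0.37, exact permutation p = 0.286, adjusted p = 0.477), although Fcgr4 passed edgeR's test only in the latter.

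The genes around the receptors were given by a list of 62, arranged by role. In monocyte/macrophage-like cells 13 of the 55 tested rose and 1 fell, beside 6.07% and 5.26% of all genes. The median log2 fold change of the 55 was 0.23 and that of all genes tested -0.0048. With 1 sample left out, 2 to 17 of them rose: 2 without iKO sample 1 or control sample 2, 3 without iKO sample 2 or control sample 4, 8 without control sample 3, and 14 to 17 otherwise.

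The kinases and adaptors that act below the ITAM held the most calls, with 6 of 18 risen, among them Fgr, Lcp2, Plcg2, Rac2 and Vav1, and none fallen. Syk itself differed by 0.03 (edgeR adjusted p = 0.860). Of the 3 signalling adaptors tested beside Fcer1g none passed, with the ITAM adaptor Tyrobp at 0.05 (edgeR adjusted p = 0.760). Of 9 phosphatases and inhibitors Dok1 and Ptpn6 rose, of 9 inhibitory receptors Sirpa, which restrains phagocytosis, and of 5 subunits of the phagocyte oxidase Cybb.

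Among 6 other Fc receptors Trim21, the cytosolic antibody receptor, rose from 7.23 to 18.7 CPM (1.38 ± 0.30, log2 ± SE, edgeR adjusted p = 0.0234). Of 5 receptors that signal through the Fcer1g chain, Cd300ld rose from 74.5 to 159 CPM (1.05 ± 0.11, edgeR adjusted p = 0.00323) and Pira2 rose too, whereas Clec4d, a C-type lectin, fell from 367 to 264 CPM (-0.51 ± 0.12, adjusted p = 0.0274). In neutrophil-like cells Trim21 was the 1 list gene called of 48, beside 1.89% of all genes, while the median log2 fold change of the list was 0.29 and that of all genes 0.0025. In T-like cells 1 of 45 rose and 4 fell, beside 4.85% of genes in either direction, with a list median of -0.07. In B-like cells Cybb was the 1 of 29 called, beside 3.12%. The edgeR test called none of 50 in cDC2-like cells, beside 2.1%, and none of 42 in mature DC-like cells, beside 0.0751%, with 16 and 7 at an unadjusted p under 0.05.

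The genes whose levels ran most like each member's over the 17 combinations of class and genotype were found by Spearman's rho of mean log2(CPM + 1), among 8578 genes. For Fcgr1 they were Creb5 (0.926), Pira2 (0.922) and Nupr1 (0.919), and for Fcgr4 Lst1 and Lipg (0.931 each) and Ifitm3 (0.924). For Fcgr3 they were Lilr4b and Card19 (0.956 each) and Vegfa (0.944), and for Fcgr2b Hpgd (0.916), Dpep2 (0.915) and Eps8 (0.914). Fcer1g ran most like Itgam (0.944), Spsb2 (0.917) and Tyrobp (0.912), the last being a fellow ITAM adaptor. Between members, Fcgr1 and Fcgr4 were the most alike (0.882), then Fcgr3 and Fcer1g (0.838), and Fcgr2b and Fcer1g the least (0.517). The 17 points share samples and libraries, so these values are a description.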

How the data were processed

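Each hashtagged sample has a deposited matrix of raw UMI counts, written by Cell Ranger per the file headers (version 7.1.0 and build GRCm39 per the submitters' processing notes). Cells with at least 300 genes and at most 10% mitochondrial counts were kept, cells with a Scrublet score over 0.25 removed (438, 1.95%), and the rest clustered (scanpy 1.11.5, leidenalg 0.10.2, resolution 2) without the members. No deposited cell type annotation was used. A class needed a named cluster, at least 2 of 6 markers and more than of any other lineage. Monocyte/macrophage, neutrophil and DC types counted as the same lineage. Among these, only the cluster and the 2 own markers decided, and a cell could hold more markers of another such type. Counts were summed per sample and class (at least 20 cells), filtered with filterByExpr, TMM-scaled and tested by edgeR 4.0.16's quasi-likelihood test in R 4.3.3. DESeq2 1.42.0, other scalings, filters, gates, thinning, left-out samples and a replicate block were tried. Single values used exact permutation tests over samples (scipy 1.17.1). In simulated counts with 200 genes changed 4-fold, 96% were recovered in monocyte/macrophage-like and 86.5% in neutrophil-like profiles. The members differed by less than 4-fold in these classes, and recovery of changes of their size was not tested. The members and lists were chosen with earlier results of these data known. Named list genes are the called ones with the 3 largest sizes in each direction, of which 1 is not reported here. The per-class fits and clusters include all 4 samples of each genotype where each had enough cells.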

Additional observations from a re-analysis of the deposited data

Results flagged for a closer look

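Of 126 groups of 4 samples examined, 11 held a sample whose gap to the nearest of the others exceeded Dixon's 95% critical share of the group's range. Chance flags about 1 in 20 groups. Among levels above 50 CPM, Fcer1g stood high in control sample 1 of Vcan/Chil3 cells, at 3876 CPM, and in control sample 4 of T-like cells, at 179 CPM, and Fcgr2b stood low in control sample 1 of Arg1 cells, at 590.4 CPM. The ratio of activating to inhibitory receptor UMIs stood high in control sample 1 of Vcan/Chil3 cells, at 2.03, and of cDC2-like cells, at 1.85. Lower levels were apart for Fcgr3 in T-like cells (24.8 CPM in control sample 4 and 7.82 CPM in iKO sample 4) and cDC1-like cells (15.1 CPM in iKO sample 2). The same held for Fcgr1 in T-like cells (14.5 CPM in iKO sample 3), Fcgr4 in mature DC-like cells (41.4 CPM in iKO sample 2) and Fcgr2b in pDC-like cells (33.5 CPM in iKO sample 1). Control sample 1 accounted for 4 of the 11.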

How the results depend on the processing

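Over single members and alternatives, 708 values kept their direction and side of the threshold, 101 lost the call, 41 gained it and 22 turned, the cause of which was not tested. Values that turned were mostly small: Fcgr2b in neutrophil-like cells (-0.119 to 0.178 with 1 sample left out, negative in 4 of those fits, and -0.142 by library totals, -0.022 without a filter, -0.052 with doublets kept, -0.329 by gate alone, -0.74 thinned), Fcgr3 there (-0.018 by library totals), Fcgr4 of monocyte/macrophage-like cells within clusters 13 and 20 (-0.401 and -0.036), Fcer1g within cluster 13 (-0.067), Fcgr4 in cDC2-like cells by gate alone (-0.045), Fcer1g in B-like cells (-0.286 to 0.428 with 1 sample left out, negative without iKO sample 2), Fcgr3 in Arg1 cells (-0.137 to 0.001 with 1 sample left out, 0.225 thinned), and in mature DC-like cells Fcgr1 without iKO sample 2 (-0.26) and Fcgr4 (-0.976 to 0.896 with 1 sample left out, negative without iKO sample 2 or control sample 2, -0.033 with the replicate block, -0.031 with DESeq2). Members called changed by over 1.5 times from 2 to 0 (doublets kept, clusters without gate) or 1 (thinned) in T-like cells, 0 to 1 in B-like (no filter), 1 to 2 in neutrophil-like (no filter, DESeq2, doublets kept), 3 to 1 in cDC2-like (gate alone), 0 to 1 in mature DC-like (no filter, DESeq2) and in Arg1 cells (library totals, no filter, DESeq2, at least 50 cells), 2 to 1 in Cxcl9/10 (doublets kept, gate alone) and C1q cells (clusters without gate, gate alone), and 2 to 4 in C1q cells with DESeq2. With 1 sample left out they ran from 1 to 3 in monocyte/macrophage-like, 0 to 3 in T-like, 0 to 0 in B-like, 1 to 2 in neutrophil-like, 1 to 3 in cDC2-like, 0 to 1 in mature DC-like, 1 to 4 in Vcan/Chil3, 0 to 1 in Arg1, 0 to 2 in Cxcl9/10 and 0 to 3 in C1q cells, list genes risen from 2 to 17, order steps from 0 to 0 and class differences at unadjusted p under 0.05 from 1 to 3. The log2 ratio difference then ran from 0.86 to 1.20 (monocyte/macrophage-like), 0.92 to 1.31 (Vcan/Chil3), 0.58 to 0.89 (Arg1), 0.72 to 1.07 (Cxcl9/10), 0.72 to 1.01 (C1q), 0.76 to 1.10 (other), 0.29 to 0.56 (neutrophil-like), 1.08 to 1.78 (cDC2-like) and 1.66 to 2.61 (mature DC-like). Rare classes limit the depth: at 20 cells per sample NK-like, pDC-like and cDC1-like cells did not reach the 3 samples per genotype required, and at 10 cells cDC1-like cells did.

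The samples share only file numbers across genotypes. Same-numbered deviations correlated over 0.1 in 4 of 4 pairs over all kept cells (0.502, 0.239, 0.145 and 0.532), in 3 of 4 in T-like (0.543, 0.025, 0.382 and 0.174) and cDC2-like profiles (0.058 to 0.202), and in 2 or fewer of 4 in each other class or subset profile, among them 0.199, -0.116, -0.039 and 0.149 in monocyte/macrophage-like cells, and not every sample correlated best with its own number. With the number as a replicate block, edgeR's adjusted p was 0.0593 for Fcgr3 in monocyte/macrophage-like cells, 0.0948 for Fcgr3 and 0.0551 for Fcgr2b in Cxcl9/10 cells and 0.116 for Fcgr3 in C1q cells, so that these calls ended. Calls were gained for Fcgr1 in neutrophil-like cells (adjusted p = 0.0277) and Arg1 cells (0.0190), Fcgr4 in cDC2-like cells (0.833, 0.0366) and Fcgr2b in mature DC-like cells (0.0397). Members called became 2 in monocyte/macrophage-like, 2 in neutrophil-like, 4 in cDC2-like, 1 in mature DC-like, 1 in Arg1, 0 in Cxcl9/10 and 1 in C1q cells, and did not change in number in T-like, B-like and Vcan/Chil3 cells.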
